A study of Gallus gallus with 3 samples.

Results

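Cranial neural crest cells (NCC) of chicken embryos at Hamburger-Hamilton stage 9 (HH9) were compared with trunk NCC on the array titled HH19. The comparison used 2 of the 3 arrays of the series, and its members are the genes whose signal differed 2-fold or more between them. NCC of 3 stages were measured on Affymetrix chicken genome arrays, and each stage is represented here by 1 array. All 3 arrays hold total RNA of white leghorn chicken embryos, from cells sorted with HNK1, a carbohydrate epitope carried by migrating NCC and also by the notochord. Per the study, the cranial cells came from heads cut where the midbrain meets the hindbrain and the trunk cells from trunk explants. The study describes both as freed of neural tube and notochord, digested with Dispase, triturated to single cells and sorted on magnetic beads, with embryos pooled. Removal of ectoderm is described for the trunk explants only. The source name of the HH9 array says trunk, and its cranial origin is taken from the methods.

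The stage labels of the 2 trunk arrays conflict. For the array titled HH19 the age field gives stage HH16, for the array titled HH16 it gives stage HH19, and the descriptions name HH16 for both. The titles serve as names here, and the labels alone leave the true stages unsettled. The paper reports STMN2 and MAB21L1 as higher at HH19 than at HH16, and TBX22 and osteopontin (SPP1) as lower. In the order titled HH19, titled HH16, STMN2 had signals of 1320 and 4911, and MAB21L1 48.4 and 725. TBX22 had 145 and 13.1, and SPP1 562 and 90.1. These genes follow the age field, by which the array titled HH19 holds stage HH16. For MAB21L1, TBX22 and SPP1 the dimmer signal lay under the floor defined below. ISL1 and CFC1, reported as higher, and MSX2, POSTN, FGFR2 and RARB, reported as lower, also follow the age field, with signals above that floor. SNAP25 and ADCYAP1, reported as higher, do too, with the dimmer signal of each under that floor. FZD7, CRABP1, TWIST1 and GATA3, reported as higher at HH19, ran the other way. TWIST1 had 516 and 15.2 and GATA3 135 and 72.0, the dimmer signal of each under that floor. SEMA3C, reported as lower, was nearly level at 1390 and 1295. Axial level, stage and dissection differ together between the compared samples, and their parts in a difference cannot be told apart. With 1 array a side there is no replicate check and no test. Ratios describe these 2 arrays, whose small number limits how precise they are. The third array, titled HH16, is given beside them as a side value. It shares the HH9 array with any comparison made against it. In RNA from a sorted population, fewer cells of a type and less RNA per cell cannot be told apart.

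NCC leave the dorsal neural tube, migrate through the embryo and give rise to many cell types. Cranial NCC form much of the skeleton and connective tissue of the face as well as neurons, glia and pigment cells, whereas trunk NCC form sensory and sympathetic neurons, Schwann cells and pigment cells. Position along the axis is marked by HOX genes, which cells of the hindbrain and trunk express and the most anterior cranial crest does not, and by OTX2 in the forebrain and midbrain. Retinoic acid, a derivative of vitamin A made next to the trunk neural tube, takes part in setting the HOX pattern and in neuronal differentiation.

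Signals are MAS5 values on a linear scale, and each set of 3 signals below is given in the order HH9, titled HH19, titled HH16. A floor was set at 99.8, the 40th percentile over the 3 arrays together, and dimmer signals were raised to it before a ratio was taken. Where 1 of the signals lay under the floor, the fold is a lower bound, marked by "at least", and where both did, none is given. Genes on several probe sets are read from the brightest one. A log2 ratio sets HH9 over the array titled HH19, so that 1 is a 2-fold higher and -1 a 2-fold lower signal on the HH9 array. A number in brackets after the signals of a gene is its log2 ratio, and probe sets are given by their log2 ratios.

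Of 13009 named genes, 10675 had a ratio and 2334 lay under the floor on both arrays. On the HH9 array 277 genes (2.59%) were higher by at least 2-fold and 560 (5.25%) lower, 7.84% in either direction, and the median log2 ratio over all genes was -0.0001. Of these folds, 46 and 151 are lower bounds. Among 24886 probe sets with a ratio, 576 (2.31%) were higher and 1188 (4.77%) lower, 7.09% in either direction. The lower side also held the larger differences. At 4-fold there were 36 genes higher and 119 lower, at 8-fold 10 and 46, and at 16-fold 1 and 13. Higher genes made up 33.1% of the calls. When the arrays were centred on their medians, which moved the median log2 ratio of all genes by 0.11, they made up 44.7%, with 381 higher and 472 lower. Among genes whose brighter signal was under 500, 2.44% were higher and 5.58% lower, and among those over 8000 the shares were 1.07% and 2.14%. Nearest to the threshold, EPHB3 lay just inside at 2.001-fold higher and CLUAP1 just outside at 1.998-fold. On the lower side RHBDL3 was just inside at 2.003-fold and RTN1 just outside at 1.998-fold.

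**Figure D1:**
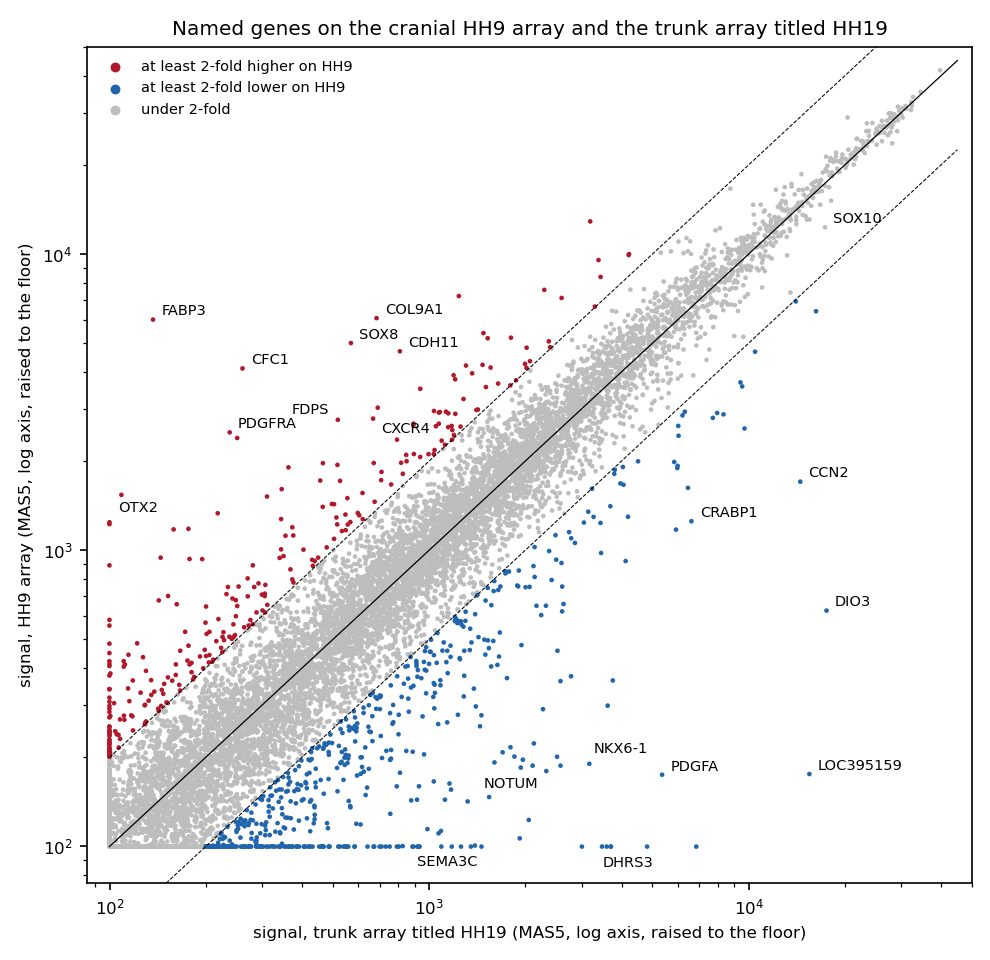
Signal of each gene with a ratio on the array titled HH19 (horizontal) and on the HH9 array (vertical), both on log axes with signals under the floor raised to it. The solid line marks equal signals and the dashed lines a 2-fold difference; 277 genes (red) lie above the upper line or on it and 560 (blue) below the lower one, and SOX10 lies between them.

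Of 5096 genes with a ratio for 2 or more probe sets, the SD of the log2 ratio within a gene had a median of 0.23 and a 90th percentile of 0.57. This is a spread between probes on the same 2 arrays and not between samples. Among 123 such genes called higher, all probe sets were higher for 103 and all were at least 2-fold higher for 35. Among 275 called lower, all were lower for 240 and all at least 2-fold lower for 89. FGFR2, a receptor for fibroblast growth factors, and ZNF71, a zinc finger gene, had probe sets past 2-fold in opposite directions. The 5 ratios of FGFR2 ran from -1.18 to 1.002, and the 2 of ZNF71 were -1.14 and 1.09, so neither gene has a settled direction here.

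Of the 132 genes past 2-fold that are named here, 27 fell under 2-fold under another setting and 0 changed direction. Taking the 60th percentile as the floor ended the call of 13, which were CDH5, CYP26A1, CYP26C1, DTX4, EBF2, EBF3, EPHA1, KDR, LAMA4, LHX9, PMEL, RHBDL3 and SEMA3F. The choice of probe set, by keeping those specific to 1 transcript or by the median of a gene, ended that of 10, which were CDH2, CDON, HHIP, KDR, MBP, MYLK, NCAM1, PLXNA4, SYP and ZNF71. Rescaling the arrays ended that of 6 close to the threshold, CADM1, CDKN1B, COL9A3, EPHB3, NRP2 and RHBDL3. Among genes above the floor on both arrays that kept the call, the higher floor moved the fold of 15 by more than 1.5 times and the median over probe sets that of 11.

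**Figure D2:**
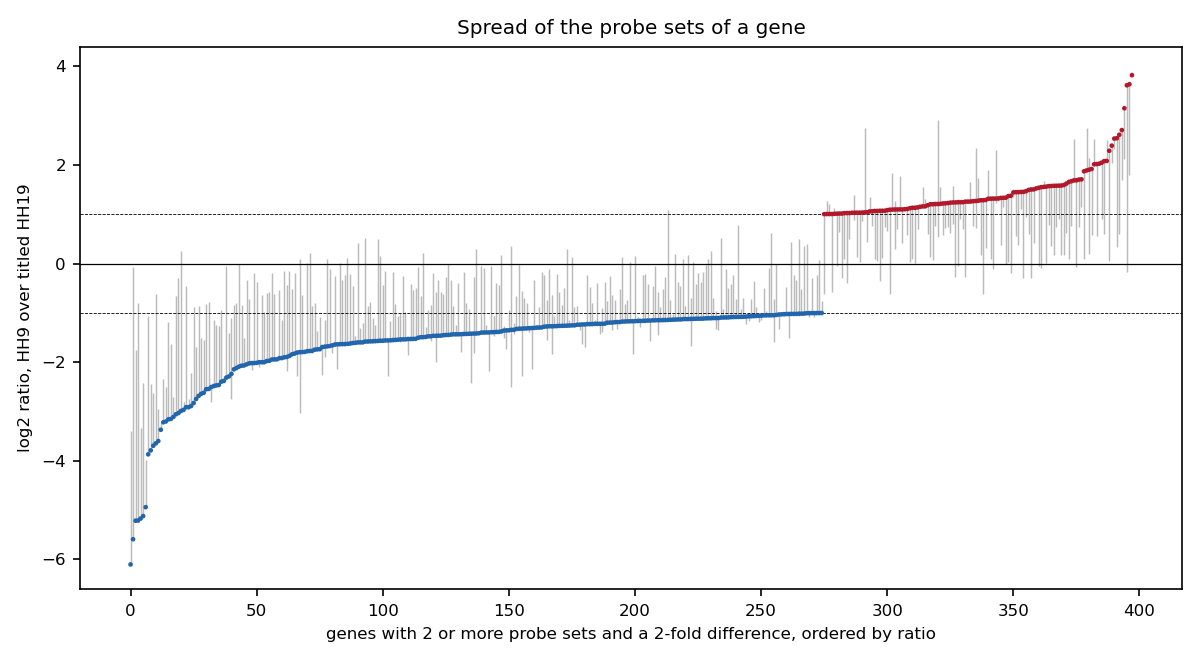
Log2 ratio, HH9 over titled HH19, of the 398 genes with 2 or more probe sets and a 2-fold difference, ordered along the horizontal axis. Points show the brightest probe set, grey lines run from the lowest to the highest probe set of the gene, and for 343 of the genes the whole line lies on 1 side of 0.

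Both samples carried genes that define NCC. Of 11 genes checked, B3GAT1 and CHST10 among them, 9 differed by less than 2-fold, SNAI2 and PAX7 being the others. Most of all genes also did, with 7.84% past 2-fold in either direction. SOX10, a transcription factor that marks migrating NCC, had signals of 12315, 17338 and 15746 (-0.49). FOXD3, which acts early in crest specification, had 4273, 6018 and 6650.2 (-0.49). ETS1, which is needed for cranial crest delamination, had 2065, 1347 and 937, with probe sets from -0.29 to 0.62. TFAP2A and TFAP2B, transcription factors of the neural plate border and crest, had log2 ratios of 0.19 and 0.84, and SOX9 had 0.54. B3GAT1 and CHST10, enzymes that build the HNK1 epitope, had 0.62 and -0.19.

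Of 30 crest specifier genes with a ratio, 7 were 2-fold or more above the trunk array on HH9 and 5 lower, where of all genes 2.59% were higher and 5.25% lower. The median was 0.27. Counts and medians of the lists below stand beside these shares and the median of -0.0001 over all genes. SOX8, a close relative of SOX10, had signals of 5006, 569 and 1330.4, 8.80-fold higher on HH9. TWIST1, a factor of mesenchymal crest, had 1941, 516 and 15.2 and was 3.76-fold higher. Its signal on the array titled HH16 lay under the floor. DLX5, a homeobox gene of the neural plate border and pharyngeal arches, had 7568, 2292 and 1807, a 3.30-fold difference. SNAI2, a repressor of cadherin genes in delaminating crest, had 3776, 1206 and 997 and was 3.13-fold higher on HH9. For these 4 genes both trunk signals lay under the HH9 signal.

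The lower specifiers were MSX2, TFAP2C, ZIC1, PAX7 and ZEB2. MSX2, a homeobox target of BMP signaling, had signals of 185, 1935 and 535, 10.5-fold lower on HH9. TFAP2C, the third AP-2 gene on the list, had 18.8, 933 and 1146 and was at least 9.35-fold lower. ZIC1, a dorsal neural tube factor, had 39.4, 641 and 236 and was at least 6.42-fold lower, and a second probe set gave -0.85. For MSX2 and ZIC1 the array titled HH16 lay between the other arrays. PAX7, which marks the neural plate border, had 649, 2319.9 and 609.7, 3.57-fold lower on HH9 than on the array titled HH19. Its signal on the array titled HH16 was close to HH9, and PAX7 is also on the somite and muscle list. ZEB2, a repressor that acts in crest migration, had 1986, 5846 and 4926 and was 2.94-fold lower. PAX3, the paralog of PAX7, had 933, 1691 and 1814 (-0.86), short of 2-fold.

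The HOX lists, the second of which also holds CDX genes, had the lowest medians of the 52 lists examined. The 10 measured HOX genes of paralog groups 1 to 5 were all 2-fold or more lower on HH9, as were 8 of the 10 with a ratio in groups 6 to 13. The signals of the first set summed to 522, 24119 and 18695. HOXB2, the one of them with an HH9 signal above the floor, had 106, 1921 and 989, a 18.05-fold difference, and all others are bounds. The largest HOX bound was that of HOXA6, of group 6, at 15.999, 6856 and 8002, at least 68.7-fold lower on HH9. Their probe sets differed, with those of HOXB1 running from -5.59 to -0.08. Of 15 head and anterior patterning genes, 1 was higher and 2 were lower, with a median of 0.44. OTX2 had 1243, 43.004 and 91.1, at least 12.4-fold higher on HH9, and both trunk signals lay under the floor. GBX2, which marks the anterior hindbrain side of the midbrain boundary, had 1063, 712 and 538 (0.58). DACH1, a transcription cofactor, had 210.2, 735 and 875 and was 3.49-fold lower on HH9.

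Retinoic acid genes were lower on the HH9 array more often than higher. Of 17 with a ratio, 9 were at least 2-fold lower and 1 was higher, and the median was -1.24, beside 5.25%, 2.59% and -0.0001 for all genes. Over the array titled HH16 the HH9 array had 5 of 17 lower and 1 higher, with a median of -0.34, where over all genes 6.69% were lower and 3.34% higher.

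Among the lower genes were 3 enzymes that make retinoic acid or return its precursor to storage. DHRS3, which reduces retinaldehyde back to retinol and is itself induced by retinoic acid, had signals of 39.97, 3706 and 2255, at least 37.1-fold lower on HH9, with a second probe set at -1.74. RDH10, which oxidizes retinol to retinaldehyde, had 356, 1034 and 407, 2.90-fold lower, and all 3 of its probe sets were at least 2-fold lower. ALDH1A2, the main enzyme that makes retinoic acid in the embryo, had 254, 1442 and 478 and was 5.67-fold lower. For RDH10 and ALDH1A2 the array titled HH16 lay nearer to HH9 than to the array titled HH19.

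A binding protein and 1 receptor were also lower. CRABP1, which binds retinoic acid in the cytoplasm, had 1252, 6620.5 and 5359.9, 5.29-fold lower on HH9. RARB, a receptor whose own gene retinoic acid induces, had 1681, 3968 and 2701 and was 2.36-fold lower, with 3 probe sets between -1.36 and -1.24. RXRG, a partner receptor found in NCC, went the other way without reaching 2-fold, with 2196, 1194 and 1416 (0.88). MEIS1 and MEIS2, which are counted on the retinoic acid list, encode cofactors of HOX proteins. MEIS1 had 111, 1070.1 and 1303, 9.67-fold lower on HH9. MEIS2 had 142, 560.0 and 546, 3.93-fold lower, with a second probe set at -0.59.

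The 3 CYP26 enzymes, which degrade retinoic acid, did not move together. CYP26B1 had signals of 98.3, 584 and 202, at least 5.85-fold lower on HH9, CYP26A1 had 37.96, 263 and 126 and was at least 2.64-fold lower, and CYP26C1 had 407, 54.5 and 126 and was at least 4.07-fold higher. A second probe set of CYP26B1 gave -0.82, short of 2-fold. Both probe sets of CYP26C1 were higher, at 2.01 and 2.03. CYP26C1 was thus the only one of the 17 genes past 2-fold on the higher side.

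**Figure D3:**
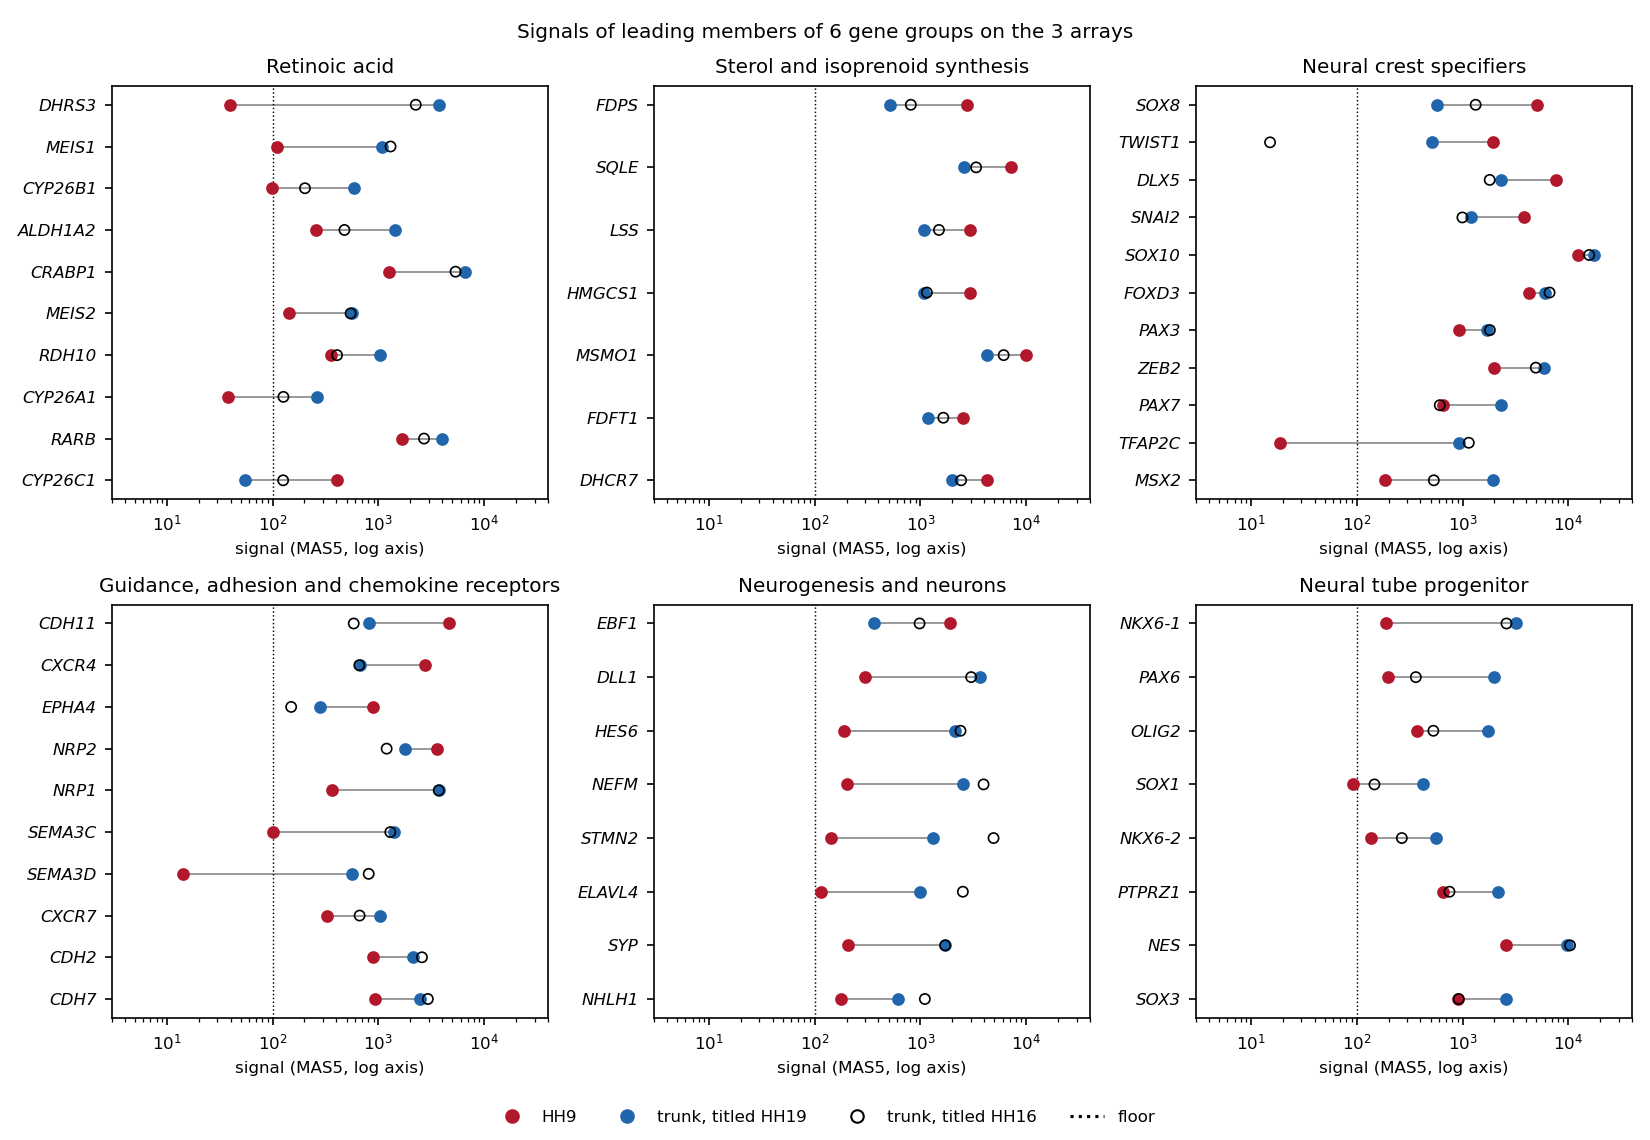
Signal on a log axis for leading members of 6 gene groups on the HH9 array (red), the array titled HH19 (blue) and the array titled HH16 (open circles), with the floor of 99.8 dotted. Members were picked with their ratios known, so counts over those shown do not describe a whole pathway. All 7 sterol and isoprenoid genes shown are brightest on HH9, whereas 9 of the 10 retinoic acid genes shown are dimmest there. PAX6, OLIG2 and SOX3 are close on HH9 and the array titled HH16.

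Genes of sterol and isoprenoid synthesis were higher on the HH9 array. Of 26 genes of cholesterol synthesis and lipid handling, 9 were at least 2-fold higher and 1 was lower, with a median of 0.47, beside 2.59% of all genes higher and 5.25% lower. Over the array titled HH16, 7 of 26 were higher and 1 was lower, with a median of 0.35. HMGCS1, which makes the precursor of mevalonate, had signals of 2928, 1080.1 and 1151, 2.71-fold higher on HH9. FDPS, which makes farnesyl pyrophosphate, had 2756, 518 and 811, a 5.32-fold difference. FDFT1, which joins farnesyl units into squalene, had 2545, 1181 and 1646, 2.15-fold higher.

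The later steps ran the same way. SQLE, which oxidizes squalene, had 7108, 2597 and 3358 and was 2.74-fold higher on HH9, and LSS, which closes the sterol rings, had 2915, 1072 and 1495 and was 2.72-fold higher, with 3 probe sets between 1.36 and 1.51. MSMO1, a sterol oxidase, had 9921, 4212 and 6119 (2.36-fold), and DHCR7, which catalyses the last step to cholesterol, had 4259, 1995 and 2424 (2.13-fold). On each of these 7 genes the array titled HH16 lay above the array titled HH19 and below HH9. CYP51A1, another enzyme of the route, had a dim probe set at 123, 124 and 89.2 (-0.01), and FASN, which makes fatty acids, had 5724, 5880.4 and 6522 (-0.04).

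Fatty acid binding proteins split. FABP3 had the largest higher ratio among genes above the floor on both arrays, with signals of 6007, 137 and 208, 43.9-fold higher on HH9, and 25.6-fold when the 60th percentile was taken as the floor. FABP5 had 476, 1166 and 2250.3 and was 2.45-fold lower. FABP7, a marker of radial glia and early glial crest, had 9032, 8267 and 8292 (0.13), nearly level on the 3 arrays.

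Collagen genes leaned to the HH9 side. Of 19 with a ratio, 5 were at least 2-fold higher and 0 lower, with a median of 0.61. The 3 chains of collagen IX, which coats cartilage fibrils, were among them. COL9A1 had 6075, 684 and 1213, 8.88-fold higher on HH9, COL9A2 had 677, 143 and 195, 4.75-fold higher, and COL9A3 had 6645, 3301 and 3330.4, 2.01-fold higher. COL2A1, the fibrillar collagen of cartilage, had 16627, 8760.0 and 6513 (0.92), with 5 probe sets from -0.18 to 1.17. COL1A2, a chain of collagen I, had 3786, 4653 and 10879 (-0.30) and was brightest on the array titled HH16. Among basement membrane and integrin genes, COL4A5 had 5407, 1479 and 1198, 3.66-fold higher, and ITGB3, the integrin beta 3 chain, had 9539, 3388 and 2688, 2.82-fold higher, whereas ITGA6, a laminin receptor chain, had 1297, 4192 and 4608, 3.23-fold lower, and LAMA4 was at least 4.20-fold lower. On that list 3 of 30 were higher and 4 lower.

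Cartilage and matrix proteins outside the collagens went both ways. MATN4, a matrilin that bridges matrix fibrils, had signals of 1538, 109 and 165, 14.1-fold higher on HH9, and HAPLN1, which links proteoglycans to hyaluronan, had 1175, 159 and 79.6, 7.41-fold higher. CCN2, a matricellular growth factor, had 1704, 14503 and 9975 and was 8.51-fold lower, and CYR61, of the same family, had 1174, 5924 and 4930.2, 5.05-fold lower. DCN, the small proteoglycan decorin, had 204, 964 and 202, 4.71-fold lower on HH9, but the array titled HH16 was level with HH9. POSTN, which encodes periostin, had 199, 712 and 219.8, 3.58-fold lower, again with the array titled HH16 near HH9. The matrix list, which holds HAPLN1 but not MATN4, had 2 of 28 genes higher and 7 lower, with a median of 0.10. Of 29 proteases and their inhibitors, 3 were higher, ADAMTS15 the most at 3.22-fold, and 5 were lower, TIMP3, an inhibitor of metalloproteases, the most at 5.87-fold.

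Among mesenchymal crest genes, 3 of 15 were higher and 2 lower. TWIST1, DLX5 and MSX2, given above with the crest specifiers, are among these. PDGFRA, a receptor on crest mesenchyme, had 2499, 237 and 121, 10.5-fold higher on HH9, and its ligand gene PDGFA had 175, 5358 and 6452, 30.7-fold lower. FOXD1 had 377, 1287 and 200.3 and was 3.42-fold lower. MSX1, the paralog of MSX2, had 1225, 1217 and 1223 (0.01). TBX22, a T-box gene of the palate, had 188, 145 and 13.1 (0.38).

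Adhesion molecules that NCC exchange during migration differed between the arrays. CDH11, a cadherin of migrating crest and mesenchyme, had signals of 4694, 810.0 and 584, 5.80-fold higher on HH9 with both probe sets over 2. CDH7, a cadherin of migrating trunk crest, had 929, 2498 and 2935, 2.69-fold lower, and CDH2, N-cadherin, had 884, 2121 and 2580.2, 2.40-fold lower. CDH2 was 1.79-fold lower when only probe sets specific to 1 transcript were kept. Of 22 cadherins and protocadherins, 1 was higher and 5 were lower. CDH5, an endothelial cadherin, was among the lower ones at 135, 346 and 86.01. Of 19 adhesion genes of the immunoglobulin family, 0 were higher and 5 lower. NCAM1 led these with 438, 1654 and 1150.1, 3.78-fold lower, but it was 1.46-fold lower on the probe sets specific to 1 transcript and 1.87-fold by the median of its probe sets, and CADM1 had 6916, 14044 and 13729, 2.03-fold lower.

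Guidance genes were lower more often than higher, with 9 of 35 lower, 3 higher and a median of -0.36. Lower calls also outnumbered higher ones over all genes, at 5.25% against 2.59%. Over the array titled HH16 the counts were 10 and 4 of 35. SEMA3C, a secreted ligand, had signals of 101, 1390.4 and 1295, 13.8-fold lower on HH9, and SEMA3D, of the same class, had 14.2, 558 and 809.7, at least 5.59-fold lower. SEMA3F, a ligand that repels trunk NCC from the posterior somite, had 452, 225 and 128, 2.01-fold higher.

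The 2 neuropilins, receptors for class 3 semaphorins, differed in opposite directions. NRP1 had 363, 3756 and 3719.8 and was 10.3-fold lower on HH9, with both probe sets under -3. NRP2 had 3601, 1795 and 1197 and was 2.01-fold higher, with 3 probe sets between 0.98 and 1.27. NRP2 sat on the threshold by its brightest probe set. Among their plexin partners, PLXNA2 had 143, 878 and 609, 6.14-fold lower, and PLXNA4 had 1022, 478 and 725, 2.14-fold higher.

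Chemokine receptors also split. CXCR4, the signaling receptor for CXCL12, had 2781, 668 and 659.5, 4.17-fold higher on HH9, and CXCR7, the scavenging receptor for the same ligand, had 329.8, 1042 and 664, 3.16-fold lower. The ligand gene CXCL12 had 430.3, 654 and 624 (-0.60). Of 14 Eph receptors and ephrins, 4 were higher and 0 lower, with a median of -0.03. EPHA4 had 889, 281 and 149.8, 3.17-fold higher, EPHA1 was at least 2.54-fold higher, EFNB2 at least 2.09-fold and EPHB3 2.001-fold, so only EPHA4 was clear of the threshold with both signals above the floor.

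**Figure D4:**
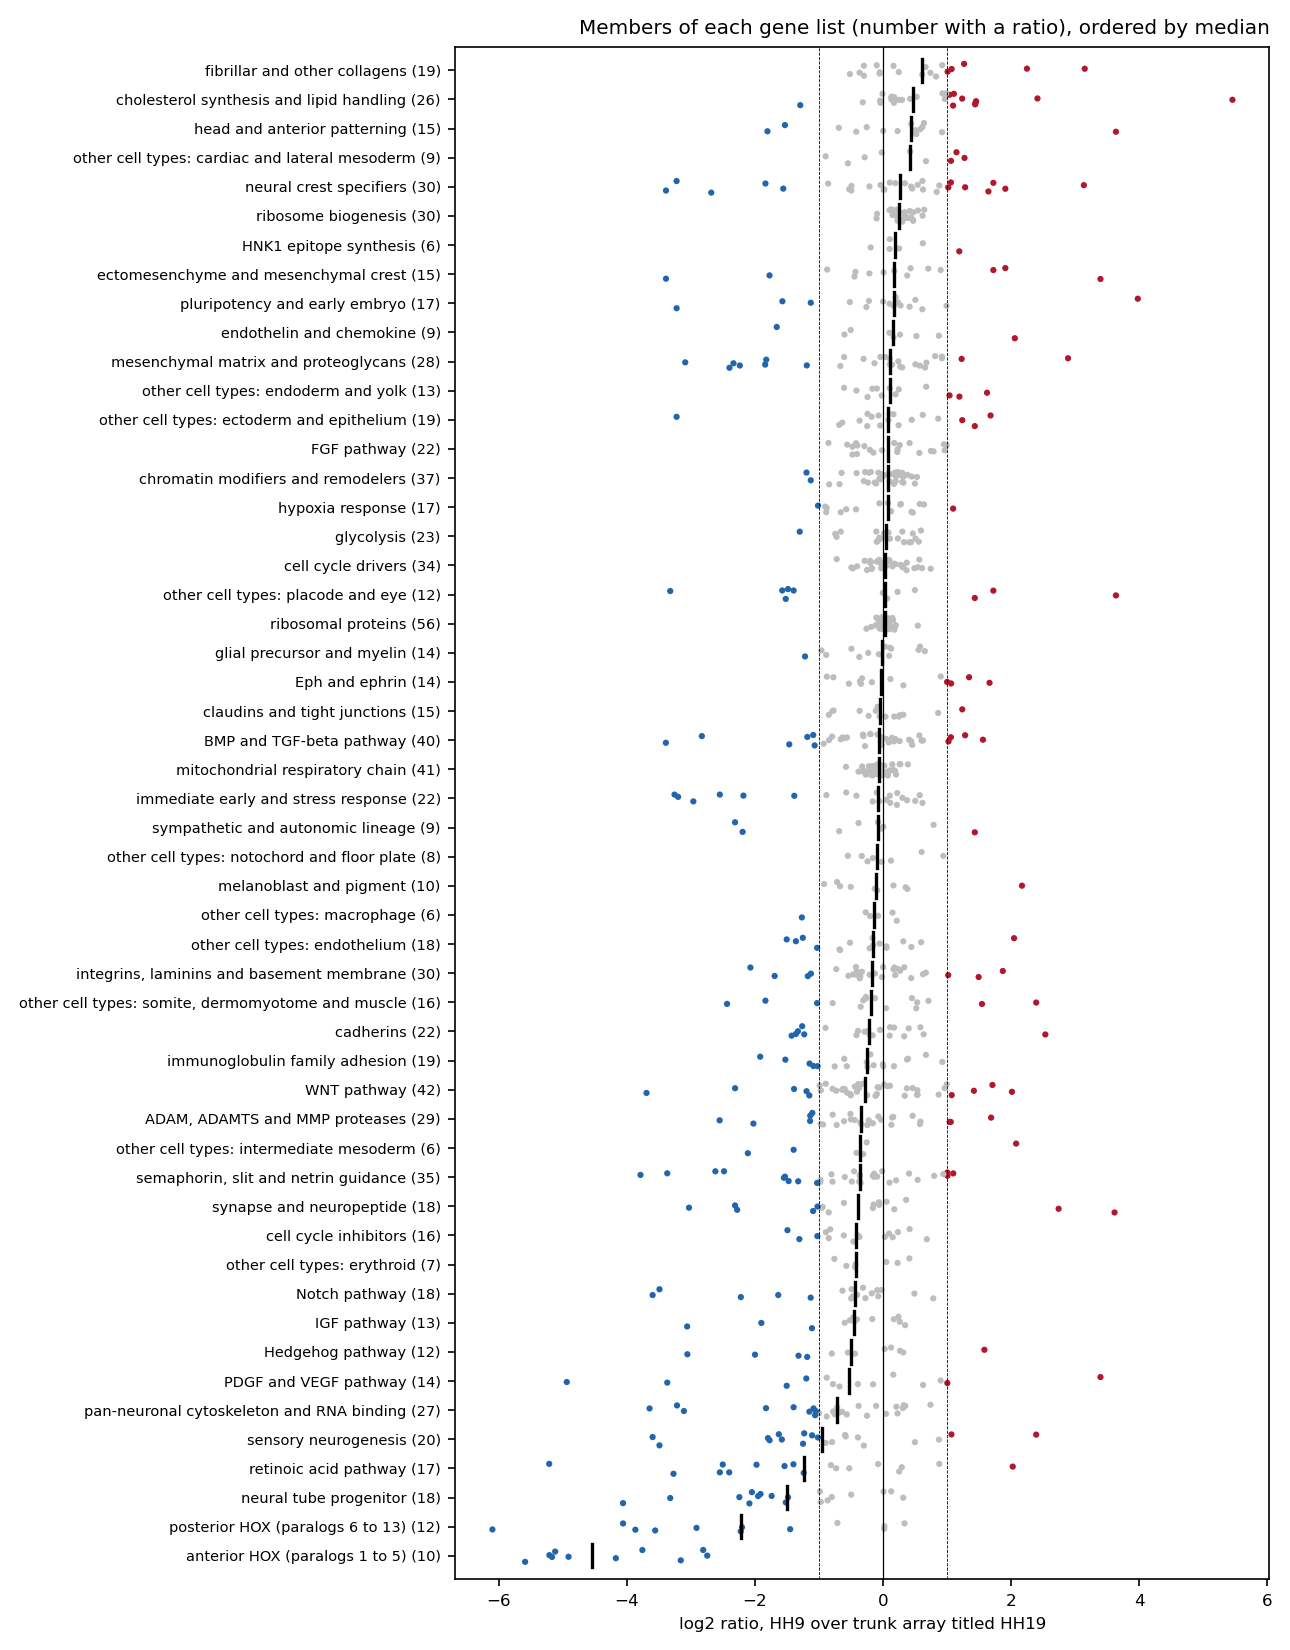
Log2 ratio, HH9 over titled HH19, of the members of 52 gene lists, with the number that had a ratio in brackets; black bars mark medians and dashed lines the 2-fold threshold (red higher, blue lower). The HOX, neural tube and retinoic acid lists have the lowest medians, and the collagen and cholesterol lists the highest, at 0.61 and 0.47.

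Neuronal genes were lower on the HH9 array. Of 20 genes of sensory neurogenesis, 10 were at least 2-fold lower and 2 higher, with a median of -0.96, where 5.25% of all genes were lower and 2.59% higher. Over the array titled HH16, 15 of 21 were lower and 0 higher, with a median of -2.11. DLL1, a Notch ligand of nascent neurons, had signals of 299, 3619.7 and 3014, 12.1-fold lower on HH9. HES6, which promotes neurogenesis, had 187, 2108 and 2392, 11.3-fold lower. Other members of the list fell short of 2-fold, among them ISL1 at -0.90. NEUROG1 and NEUROD1 did too, at -0.59 and -0.58, which are bounds because their HH9 signals lay under the floor. NHLH1, a factor of newborn neurons, had 176, 611 and 1101 and was 3.47-fold lower, though its 3 probe sets ran from -3.02 to 0.09. EBF1, a transcription factor of the Olf/EBF family, stood on the other side with 1904, 363 and 981, 5.25-fold higher on HH9, and EBF2 had 468, 223 and 337, 2.10-fold higher. Their relative EBF3 had 111, 342 and 492, 3.09-fold lower.

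Of 27 pan-neuronal genes, 9 were lower and 0 higher, with a median of -0.72. Against the array titled HH16 the counts were 17 and 0 of 27, with a median of -1.34. NEFM, a neurofilament subunit, had 201, 2514 and 3949, 12.5-fold lower on HH9. STMN2, whose product loosens microtubules in growth cones, had 142, 1319.6 and 4911, 9.31-fold lower. ELAVL4, a neuronal RNA-binding protein gene, had 114, 988 and 2517, 8.63-fold lower. All 3 were brightest on the array titled HH16. The tubulin genes TUBB3 and TUBA1A, also on the list, were not lower, with log2 ratios of 0.21 and 0.23.

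Synaptic and peptide genes held exceptions. SYP, a synaptic vesicle protein gene, had 208, 1698 and 1711, 8.17-fold lower on HH9, but 1.23-fold lower on the probe sets specific to 1 transcript and 3.17-fold by the median over its probe sets. CHGA, of secretory granules, had 159, 792 and 5639, 4.96-fold lower, and 2.97-fold by either of these. GAL, which encodes the neuropeptide galanin, had 1181, 176 and 1318 and was 6.69-fold above the array titled HH19, but was brightest on the array titled HH16. SST1, which encodes somatostatin, had 1224, 37.7 and 208 and was at least 12.3-fold higher, though its 3 probe sets ran from -0.17 to 3.62. Of 18 such genes, 5 were lower and 2 higher. SNAP25, ADCYAP1, MAB21L1 and MAB21L2 lay under the floor on both compared arrays and have no fold.

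Of 14 glial and myelin genes, 1 was lower and 0 higher, with MBP, myelin basic protein, at 208, 485 and 1151. Among genes above the floor on both arrays, the largest lower ratio belonged to LOC395159, whose synonym SERAF stands for a Schwann cell-specific autocrine factor with EGF-like repeats. It is not counted among those 14 genes. It had signals of 175, 15490.1 and 20779 and was 88.3-fold lower on HH9, from 1 probe set. Its order against HOX genes and DHRS3, whose folds are bounds, is not known. Of 10 pigment genes, 1 was higher and 0 lower. PMEL, a melanosome protein gene, had 449, 38.1 and 398, at least 4.50-fold above the array titled HH19 and close to its level on the array titled HH16.

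Markers of neural tube progenitors were lower on the HH9 array, and the trunk arrays differed in them. Of 18 with a ratio, 10 were at least 2-fold lower and 0 higher, with a median of -1.50, beside 5.25% of all genes lower. Over the array titled HH16, 3 of 16 were lower, with a median of -0.54. NKX6-1, a ventral progenitor factor, had signals of 190.0, 3172 and 2602, 16.7-fold lower on HH9. PAX6 had 196, 1965 and 362, 10.01-fold lower, and OLIG2, which marks motor neuron progenitors, had 370.0, 1752 and 530.2, 4.74-fold lower. SOX3, a neural progenitor factor, had 905, 2595 and 920.5, 2.87-fold lower. For PAX6, OLIG2 and SOX3 the signal of the array titled HH16 was closer to HH9. NES, which encodes nestin, a progenitor filament that NCC also express, had 2575, 9704 and 10382, 3.77-fold lower, and was high on both trunk arrays.

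The 22 measured neural tube genes summed to 25056, 49464 and 41775 on the 3 arrays, and 14, 18 and 16 of them were at or above the floor. Most of each sum came from FABP7, VIM and NES. FABP7 gave 9032, 8267 and 8292, VIM 7413, 13508 and 12948, and NES 2575, 9704 and 10382. Retinoic acid, Notch, Hedgehog and neuronal lists also leaned lower on the HH9 array, but not all in the same order over the 3 arrays. The lean of the Hedgehog median depended on the floor, as given below. The measured sensory neurogenesis genes summed to 5374, 11362.5 and 22802, highest on the array titled HH16. The Hedgehog genes summed to 11110, 11811 and 9303, lowest there. The part of neural tube genes in those results was not tested.

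Several lists of other cell types had most of their markers near or under the floor, and others did not. Of 9 cardiac genes 3 were higher on the HH9 array and 0 lower, with summed signals of 4114, 2950.5 and 8747. Sums for this list and those below run over all measured members, with or without a ratio. ISL1, which is also on the sensory neurogenesis list, gave 285, 530 and 5215 of the cardiac sums. TNNC1, a troponin gene, had 1973, 817 and 539, 2.42-fold higher, while NKX2-5, an early heart factor, had 159, 20.8 and 24.8. The median of this list, 0.42, became -0.019 when the 20th percentile was taken as the floor and -0.29 for the 60th. ACTC1, cardiac actin, listed with muscle, had 934, 178 and 82.1, 5.25-fold higher. Of 16 somite and muscle genes 2 were higher and 3 lower, with sums of 4152, 5453 and 3615. DES, the muscle filament gene desmin, had 34.8, 540.4 and 465, at least 5.41-fold lower.

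Of 19 ectoderm and epithelium genes 3 were higher and 1 lower, with sums of 8547, 7019 and 5251. Of the 20 measured, 16 reached the floor on HH9 and 17 on the array titled HH19. EPCAM, on the same list, had 1559, 1455 and 1016.5 (0.10). ESRP2, an epithelial splicing factor, had 751, 235 and 58.99, 3.20-fold higher on HH9, and CLDN1, a tight junction gene, had 2112, 896 and 208, 2.36-fold higher, whereas CDH1, E-cadherin, had 223, 264 and 122 (-0.25). Of 13 endoderm and yolk genes 3 were higher and 0 lower, with sums of 4557, 3678 and 3098. APOA1, an apolipoprotein gene, had 1273, 619.6 and 407, 2.05-fold higher, and SOX17, an endoderm factor, had 159, 68.9 and 14.1.

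Of 18 endothelial genes 1 was higher and 4 were lower, with sums of 3277, 3965 and 2919. KDR, a receptor for vascular growth factor, had 125, 355 and 294, 2.84-fold lower, with 5 probe sets up to -0.07. Of 12 placode and eye genes 3 were higher and 5 lower, with sums of 12337, 10037 and 7317, and OTX2, DLX5 and PAX6 belong to that list too. Notochord, erythroid and macrophage lists had 0, 0 and 0 genes higher and 0, 0 and 1 lower of 8, 7 and 6. TBXT, the notochord factor brachyury, had 295, 371 and 535 (-0.33). Of 6 intermediate mesoderm genes 1 was higher and 2 were lower. LHX9 was the higher one with 422, 4.43 and 5.30, at least 4.22-fold, over 4 probe sets from 0.59 to 2.08. The part of other cell types in these results was not tested.

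Signaling pathways mostly held a few genes past 2-fold in each direction. Of 42 WNT pathway genes 4 were higher and 5 lower, with a median of -0.28. NOTUM, a secreted enzyme that inactivates WNT proteins, had signals of 179.6, 2326 and 1551, 12.9-fold lower on HH9. WNT4 had 119, 591 and 168, 4.96-fold lower, and LEF1, a nuclear effector and target, had 1408, 3690.1 and 2943, 2.62-fold lower with all 3 probe sets below -1. The receptor gene FZD7 had 3897, 1193 and 848, 3.27-fold higher, and FZD8 had 586, 219 and 333, 2.67-fold higher. DACT2, an intracellular modulator of the pathway, had 12886, 3192 and 1614, 4.04-fold higher, with 4 probe sets between 2.01 and 2.52.

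Of 40 BMP and TGF-beta genes 4 were higher and 6 lower. The ligand gene GDF10 had 147, 1540.4 and 162, 10.5-fold lower on HH9, and GDF2 had 35.2, 709.8 and 111, at least 7.11-fold lower. Both were dim on the array titled HH16 as well. ID1 and ID3, direct targets of BMP signaling, were higher, ID1 with 8367, 3440.4 and 972 (2.43-fold) and ID3 with 2614, 1254 and 898 (2.08-fold). MSX2, the BMP target given with the crest specifiers, went the other way, 10.5-fold lower on HH9. CFC1, an EGF-CFC co-receptor for the TGF-beta ligand Nodal, is counted on the early embryo list and not among these 40. It had 4108, 260.5 and 496, 15.8-fold higher on HH9, the second largest higher ratio among genes above the floor on both arrays.

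Of 18 Notch pathway genes 0 were higher and 5 lower, with a median of -0.44. The lower ones include DLL1 and HES6, which were also counted among the sensory neurogenesis genes. LFNG, which modifies Notch receptors, had 1927, 5993 and 2651, 3.11-fold lower, and DTX4 was at least 4.66-fold lower. The receptor genes NOTCH1 and NOTCH2 had log2 ratios of -0.63 and -0.09, and HEY1, a target, had 2838, 1648 and 3889.6 (0.78).

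Of 12 Hedgehog genes 1 was higher and 4 were lower, with a median of -0.49 that became 0.026 when the 60th percentile was taken as the floor. SCUBE2, which releases the ligand, had 216, 1797 and 549, 8.32-fold lower, or 2.73-fold by the median over its probe sets, and HHIP, which binds it, was past 2-fold lower too, at 119.8, 479 and 330.1. CDON, a co-receptor, had 2676, 893 and 512, 2.997-fold higher, over 5 probe sets from 0.17 to 1.58. PTCH1, the receptor and a target, had 1257, 2188 and 1879 (-0.80).

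Read from the brightest probe set, no gene of the 22 on the FGF list passed 2-fold in either direction. Other probe sets of FGFR2 did, in opposite directions, as given above. Nearest were the feedback phosphatase gene DUSP4, with 1649.7, 828 and 1006 (0.99), and the feedback inhibitor gene SPRY2, with 790.4, 409 and 762 (0.95). Of 13 IGF genes 3 were lower and 0 higher, IGFBP2, which binds the ligands, the most with 192, 1601 and 1250.5 (8.34-fold).

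Immediate early and stress genes included 6 lower and 0 higher of 22, with a median of -0.08. Over the array titled HH16, 9 of 21 were lower and 1 higher. EGR1, which growth signals and cell handling induce, had signals of 201, 1849 and 1018, 9.20-fold lower on HH9. ATF3, a stress-induced factor, had 144, 1120.5 and 500.4, 7.80-fold lower, and CHAC1, which the integrated stress response induces, had 223, 2127 and 411, 9.56-fold lower. JUN had 1186, 2189.8 and 6936 (-0.88) and FOS had 153, 89.04 and 129.7. The part of cell handling in these values was not tested.

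Genes of growth and metabolism were closer. None of 34 cell cycle drivers, 56 ribosomal protein genes, 30 ribosome biogenesis genes or 41 respiratory chain genes passed 2-fold, with medians of 0.04, 0.03, 0.25 and -0.06. Of the ribosome biogenesis genes 28 had a ratio above 0, led by NOP56, a nucleolar protein gene, with 5804, 3716 and 2914 (0.64). Of 16 cell cycle inhibitors 3 were lower and 0 higher. GADD45G had 458, 1288 and 1431, 2.81-fold lower, and CDKN1B, an inhibitor that accumulates as cells leave the cycle, had 849.7, 1730.0 and 2074, 2.04-fold lower. Of 17 early embryo genes 1, CFC1, was higher and 3 were lower. LIN28A, an RNA-binding protein gene of early embryos, had 4799.9, 2414 and 1916 (0.99).

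Several of the largest ratios belonged to genes on no list. DIO3, which inactivates thyroid hormone, had signals of 625, 17524 and 10293, 28.03-fold lower on HH9. NPR3, a clearance receptor for natriuretic peptides, had 187, 2577 and 3814, 13.8-fold lower, and ZNF503, a zinc finger repressor gene, had 83.8, 1258 and 1550.0, at least 12.6-fold lower. On all 3 both trunk arrays were above HH9. On the higher side AKR1D1, a steroid reductase gene, had 2393, 251 and 44.1, 9.54-fold higher on HH9, and CYTL1, a secreted protein gene, had 889, 97.9 and 82.3, at least 8.90-fold higher. MYLK, which encodes myosin light chain kinase, had 7213, 1238 and 524, 5.82-fold higher, but its 4 probe sets ran from 0.33 to 2.54. SMOC2, a matricellular protein gene, had 1333, 218 and 173, 6.12-fold higher, with a second probe set at 0.61. Of 5772 probe sets with a ratio and no gene name, 125 were higher and 261 lower, 2.17% and 4.52%.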

How the data were processed

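The authors deposited 1 column of MAS5 signals for each of 3 arrays, which are intensity values on a linear scale, run and normalized by an outside company. From the values, each array's mean after 2% was trimmed at each end is about 500. The study's methods describe 3 biological replicates a stage, and the sources used here do not say which of them, or what combination, a column holds. The MAS5 version and settings are not given either. The table has 38535 probe sets, of which 96 controls were dropped. Among the remaining 38439, 27168 carry 1 gene in the platform annotation, 177 several and 11094 none, and a reference table of chicken genes changed 0 symbols. No reference genome was used, so positions are not given.

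The floor of 99.8 was reached by 22610.0 probe sets on HH9, 23143 on titled HH19 and 23437 on titled HH16. Of 24886 probe sets with a ratio, 576 (2.31%) were at least 2-fold higher on HH9 and 1188 (4.77%) lower. No p-value was computed. The ratios of probe sets were tested on simulated data with changes in bright probe sets only. That does not cover lower bounds or the choice of the brightest probe set of a gene. Named genes were drawn from several sources, and not every gene of each source is named. These were the 20 most extreme ratios on either side where the brighter signal reached 235, and genes of the study's heatmap. Others were up to 4 members each way and well-known members of 52 lists by function or cell type. Genes whose probe sets disagreed past 2-fold were also used. CYP26A1, CLUAP1, RHBDL3, RTN1, NAT8, NEUROG1 and NEUROD1 were named after their values were seen. Members and lists were chosen with earlier results of these data known. Lists are described by their counts and medians, to be read beside the shares and median over all genes. Renamed list genes were matched through a hand-checked table of older symbols. Alternatives were 2 scalings, 4 floors, single-transcript probe sets, a 3-fold threshold and the median over a gene's probe sets. Python 3.11.15, numpy 2.4.6, pandas 2.3.3 and matplotlib 3.10.9 were used.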

Additional observations from a re-analysis of the deposited data

Results flagged for a closer look

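2 genes were at least 2-fold apart from the HH9 array in opposite directions on the trunk arrays. The difference was not tested, and both comparisons share the HH9 array. SPP1, which encodes the matrix protein osteopontin, gave 246, 562 and 90.1 as signals in the order HH9, titled HH19, titled HH16, so its log2 ratio of HH9 was -1.19 over the first trunk array and 1.30 over the second. NAT8, an acetyltransferase gene, gave 213, 77.4 and 434 in the same order, with log2 ratios of 1.09 and -1.03. Each has a signal under the floor on 1 trunk array, where the ratio is a bound.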

How the results depend on the processing

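The counts depended on the floor and the threshold. For probe sets, the numbers higher and lower on the HH9 array were 1847 and 2707 when the floor was the 20th percentile, 319 and 601 when it was the 60th, 3918 and 4532 with no floor, and 149 and 366 at 3-fold. For genes they were 566 and 943, 173 and 321, 870 and 1191, and 69 and 200. Under centring, quantile normalization, a floor from the 2 compared arrays, single-transcript probe sets or the median over probe sets, each count stayed within 1.5 times its value, and lower outnumbered higher under all settings. Of the 277 and 560 genes called, 277 and 472 were called after centring and 268 and 488 after quantile normalization.

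The median of the cardiac list changed sign, to -0.019 with the lower floor and -0.29 with the higher. With the higher floor those of the Hedgehog, somite and muscle, and placode and eye lists also did, to 0.026, 0.31 and -0.95. The cause was not tested. The other 48 list medians kept their sign or lay within 0.23 of 0 on both sides of the change, 0.23 being the median SD between probe sets of a gene. Of the 132 genes named in the text past 2-fold, 0 changed direction in any setting that gave them a ratio, and 27 lost the call in at least 1, up to 13 in a single setting. No paired analysis was possible because each stage has 1 array, and for the same reason no replicate could be left out. Folds against a signal near the floor are set by it.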
